A study of Mus musculus with 5 samples.

Results

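Peaks of the transcription factor CREB and of the histone mark H3K4 were examined at 10 mouse genes that drive cells from G1 into S phase: the D cyclins Ccnd1, Ccnd2 and Ccnd3, the E cyclins Ccne1 and Ccne2, the kinases Cdk4, Cdk6 and Cdk2, the transcription factor gene E2f1, and Cdc25a, whose phosphatase activates CDK2. The genes were chosen by name, with earlier results of these data known. Every peak overlapping a gene body or the 3000 bp outside it was taken. All 10 were among the 21887 protein-coding genes of the RefSeq table (GRCm38.p6, the coordinates of mm10). The material was fetal testis of Mus musculus, for which the labels give no strain, genotype or treatment. The assay was CUT&RUN, where a nuclease tethered by an antibody cuts out the DNA bound by its target. CREB was profiled on embryonic day E13.5, on E16.5 and on E18.5; H3K4, with the methylation state not given, was profiled on E18.5. Each group was 1 library of gonadal cells that were not sorted, so no value has a replicate check, no test was made, and the cell type behind a peak is unknown.

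In G1, D cyclins pair with CDK4 or CDK6 and phosphorylate the retinoblastoma protein, which frees E2F factors to switch on genes of DNA synthesis, including those of the E cyclins. Cyclin E with CDK2 then completes this step. CREB is activated by cAMP signalling through protein kinase A and binds the cAMP response element (CRE), TGACGTCA, or its shorter core TGACG; Ccnd1 is a textbook CREB target. H3K4 methylation marks promoters and enhancers. In the fetal testis, Sertoli and interstitial cells divide while male germ cells enter a mitotic arrest.

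In order of stage, CREB had 862, 3528 and 2957 deposited peaks, and H3K4 had 21211. Nearly all peaks of a list had 1 width, which was 150, 630, 160 and 210 bp in that order, so an E16.5 peak reaches further than one of another stage. Read depth is unknown and the lists hold no peak strength, so a gene without a peak is not shown to lack binding. Among tissue markers, H3K4 peaks lay within 1000 bp of a gene end at 4 of 6 Sertoli markers (Sox9, Amh, Dhh and Nr5a1), 3 of 6 Leydig markers (Star, Cyp11a1 and Lhcgr), 3 of 4 endothelial markers, 1 of 6 germ cell markers (Dazl), 1 of 4 epithelial markers and none of 5 blood markers. Over all 31 markers this was 12, a lower share than the 52.7% of protein-coding genes, so the list does not check the tissue by itself. In the gene or 3000 bp outside it, 16 of the 31 had an H3K4 peak. Those without one were Wt1, Cyp17a1, Hsd3b1, Insl3, Ddx4, Pou5f1, Dppa3, Nanos3, Pecam1, Csf1r, Adgre1, Hbb-bs, Hba-a1, Pax8 and Cdh1.

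CREB peaks were found at 7 of the 10 genes. Ccnd3 had them at all 3 stages. Cdk2, E2f1 and Cdc25a had them at E16.5 and E18.5, Ccne1 and Cdk4 at E16.5, and Ccnd2 at E18.5. Ccnd1, Ccne2 and Cdk6 had none. The counts were thus 1 of 10 at E13.5, where 4.82% of all protein-coding genes had a peak by the same rule, 6 of 10 at E16.5, where 18.3% had one, and 5 of 10 at E18.5, where 15.6% had one. H3K4 peaks were present at all 10 genes, against 63.1% of protein-coding genes. In all, 7 of 10 had CREB in at least 1 list, beside 20.5% of protein-coding genes, and 4 of 10 had it in both later lists, beside 2958 genes of the 21887. The share with CREB among protein-coding genes that have an H3K4 peak was not counted.

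**Figure D1:**
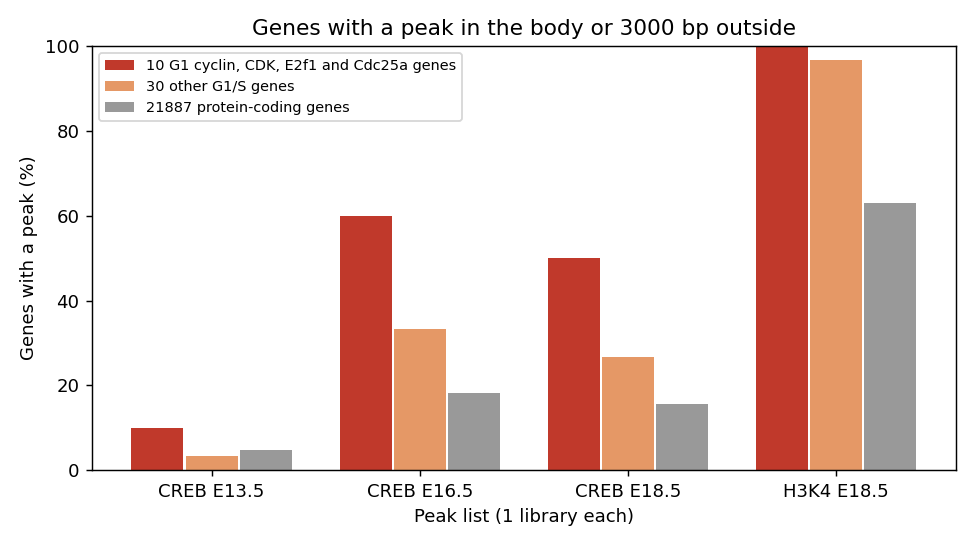
Share of genes (%, from 0) with a peak in the gene body or 3000 bp outside, for each of the 4 peak lists, in the 10 genes, in 30 other G1/S genes and in 21887 protein-coding genes. Bars are counts from 1 library each and carry no error; at E16.5 and E18.5 the bars of the 10 genes stand above those of all genes, and at E13.5 the bar is 1 gene.

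The count depends on where in the window the peaks lie. Within 1000 bp of a gene end, in order of stage, 0, 5 and 2 of the 10 genes had a CREB peak, where 3.94%, 14.9% and 12.9% of protein-coding genes had one. For H3K4 this count was 6 of 10, beside 52.7% of protein-coding genes. The E13.5 count fell to 0 because both Ccnd3 peaks of that stage lay over 6 kb inside the gene. At E18.5, Ccnd3, Ccnd2 and Cdk2 left the count. The CREB peaks just inside the edge of the window were those at Ccnd3 at E18.5, 2818 bp outside the gene, at Cdk4 at E16.5, 2791 bp outside, and at Ccnd2 at E18.5, 2671 bp outside. The one just beyond it, at Cdk4 at E18.5, was 3015 bp outside and not counted.

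Ccnd3, the D cyclin gene with CREB at every stage, held 2 of the 2 E13.5 peaks, 3 of the 10 E16.5 peaks and 3 of the 7 E18.5 peaks of the whole set. The gene spans chr17:47505051-47599689, 94.6 kb, on the plus strand. It has an outer start at its end and an inner start 88416 bp further in. The peak at the inner start was at chr17:47593235-47593384 at E13.5, chr17:47593080-47593709 at E16.5 and chr17:47593227-47593386 at E18.5. Its midpoints lay 158, 73 and 161 bp upstream of the start. The narrow peaks of E13.5 and E18.5 overlapped, with midpoints 3 bp apart.

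The Ccnd3 sequence from the lower edge of the E18.5 peak to the inner start is shown because it holds the site seen at every stage. Sequences are from RefSeq (GRCm38.p6), 5′ to 3′ on the strand of the gene, and capitals mark a CRE core (TGACG on either strand), an E2F-type site on either strand, or CACGTG. It covers chr17:47593227-47593466, plus strand.
Ccnd3 inner start: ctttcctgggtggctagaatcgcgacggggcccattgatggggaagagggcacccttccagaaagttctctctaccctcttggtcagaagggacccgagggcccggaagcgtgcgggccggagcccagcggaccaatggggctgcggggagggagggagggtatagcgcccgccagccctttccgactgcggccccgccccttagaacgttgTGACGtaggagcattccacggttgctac
The CRE core begins 28 bases before the start, inside the 630 bp E16.5 peak and outside the narrow peaks of the other 2 stages.

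Among the start windows given for protein-coding genes (250 bases before to 50 after a start), 4050 lay over 1000 bp inside both gene ends. Windows were not given for every gene. Of these, 72 windows of 63 genes overlapped a CREB peak of all 3 stages, 1.78%, and the inner Ccnd3 window was among them. The outer Ccnd3 start had no CREB peak. It carried an H3K4 peak at chr17:47504949-47505158, with a midpoint 2 bp from the start.

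A second CREB site at all 3 stages lay 6.18, 6.16 and 6.19 kb inside the outer end of Ccnd3. Its peaks were chr17:47511153-47511302 at E13.5, chr17:47510895-47511524 at E16.5 and chr17:47511159-47511318 at E18.5. No H3K4 peak was near it: the closest midpoint was 6174, 6156 and 6185 bp away, at the outer start. Of 772 CREB regions with a peak of every stage in the whole series, 32 (4.15%) had no H3K4 midpoint within 1000 bp.

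Inside the gene, an H3K4 peak at chr17:47545902-47546111, 338 bp upstream of a start of Gm41590, was in row 21050 of 21211.

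The third Ccnd3 site lay outside the gene, at chr17:47501900-47502529 at E16.5 and chr17:47502074-47502233 at E18.5. It was 77 and 138 bp downstream of the start of the neighbouring gene Taf8, which encodes a subunit of the general transcription factor TFIID, and overlapped an H3K4 peak. With these sites Ccnd3 had 3 E18.5 CREB peaks by the rule, a number reached by 25 protein-coding genes (0.114%). Without the site at Taf8 it had 2.

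**Figure D2:**
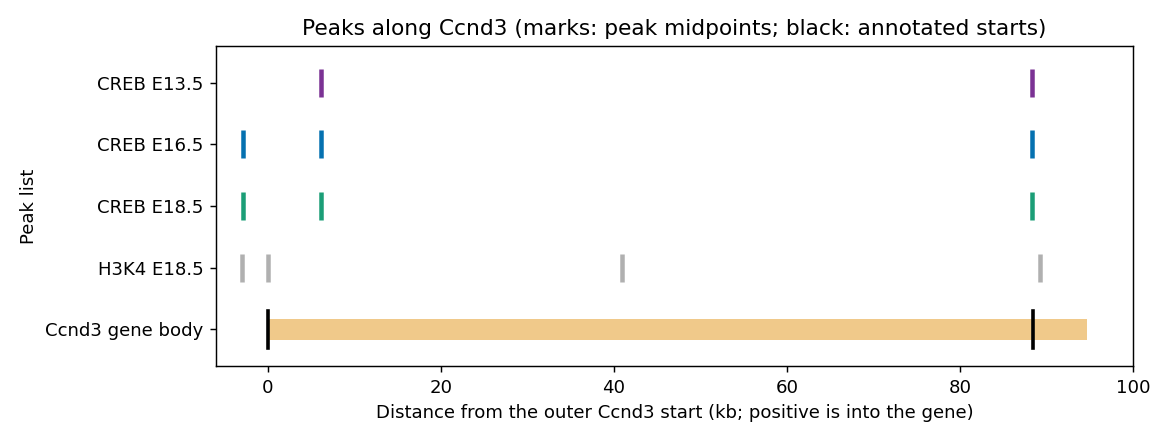
Midpoints of the deposited peaks along Ccnd3, as distance from its outer start (kb), by peak list; the bar is the gene body and the black marks are the 2 annotated starts. CREB marks line up at the inner start and 6.18 kb inside the gene at every stage, and at the Taf8 side at E16.5 and E18.5.

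The other D cyclins had little or no CREB in these lists. Ccnd2 (chr6:127125162-127152188) had 1 peak, at E18.5, chr6:127154859-127155018. Its midpoint lay 2750 bp outside the gene, within the body of the long noncoding RNA gene 9330179D12Rik and 5312 bp downstream of that gene's nearest start. The nearest E16.5 peak was 384 kb from Ccnd2. Its H3K4 peak, chr6:127149851-127150060, lay 2233 bp inside Ccnd2 and 329 bp downstream of a 9330179D12Rik start, 4983 bp from the CREB peak.

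Ccnd1 (chr7:144929931-144939831) had no CREB peak within 344 kb at E18.5, 1100 kb at E16.5 or 1107 kb at E13.5. H3K4 stood on both sides of its upper end, 1966 bp inside (chr7:144937761-144937970) and 1695 bp outside it (chr7:144941422-144941631). Both of these peaks came late in the H3K4 list, in rows 16474 and 16737 of 21211.

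Of the E cyclins, Ccne1 had CREB at E16.5 and Ccne2 had none. The Ccne1 peak, chr7:38107450-38108079, covered the start, with its midpoint 274 bp upstream, in row 2613 of 3528. H3K4 peaks lay on either side of that midpoint, 163 bp downstream of the start (chr7:38107223-38107432) and 499 bp upstream (chr7:38107885-38108094). The nearest E18.5 CREB peak was 13.0 kb from the gene. At Ccne2 (chr4:11190433-11204779) the nearest CREB peaks of the 3 stages were 499, 500 and 58.6 kb from the gene, in order of stage. The single Ccne2 H3K4 peak, chr4:11191848-11192057, was 1519 bp inside the lower end of the gene.

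Cdk4 and Cdk2, the kinases paired with D and E cyclins, each had CREB at its own start at E16.5 alone. The Cdk4 peak, chr10:127063322-127063951, was centred 101 bp downstream of the start and stood in row 2859. The Cdk2 peak, chr10:128704771-128705400, was centred 34 bp upstream of the start and stood in row 1931. An H3K4 peak touched each of these, centred 505 bp downstream of the Cdk4 start and 346 bp downstream of the Cdk2 start.

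Both kinase genes have a second CREB site on the side of a neighbour. At E16.5 the peak chr10:127070079-127070708 lay beyond the far end of Cdk4, 88 bp upstream of the start of A730063M14Rik and at the neighbouring gene Tspan31. An E18.5 peak overlapped it, chr10:127070303-127070462, the one just outside the window. Near Cdk2 the peaks chr10:128696112-128696741 at E16.5 and chr10:128696386-128696545 at E18.5 lay 158 and 197 bp upstream of the start of Rab5b, which encodes a GTPase of early endosomes. The E18.5 count for Cdk2 therefore rests on a peak at the Rab5b start, 1473 bp outside Cdk2.

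Cdk6, the longest of the 10 genes with 190 kb (chr5:3341004-3531008), had no CREB peak. The nearest was 574 kb away at both E16.5 and E18.5, and 20570 kb away at E13.5. Its H3K4 peak, chr5:3343248-3343457, lay 541 bp upstream of the annotated Cdk6 start, beside a start of the noncoding gene Gm36470, and was early in its list, in row 840.

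E2f1 and Cdc25a were the 2 genes with CREB within 1000 bp of a gene end in both later lists. The E2f1 peaks were chr2:154569602-154570231 and chr2:154569910-154570069, with midpoints 24 and 97 bp outside the outer gene end. The start given for E2f1 in the promoter table is 466 bp inside that end, so the midpoints lay 490 and 563 bp upstream of it, and H3K4 (chr2:154569005-154569214) was centred 317 bp downstream. The Cdc25a peaks were chr9:109875143-109875772 and chr9:109875357-109875516, 122 and 143 bp upstream of the start. H3K4 peaks followed at 74 and 961 bp downstream of it. The E2f1 peaks stood in rows 2527 of 3528 and 1802 of 2957, and the Cdc25a peaks in rows 3489 and 2314.

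**Figure D3:**
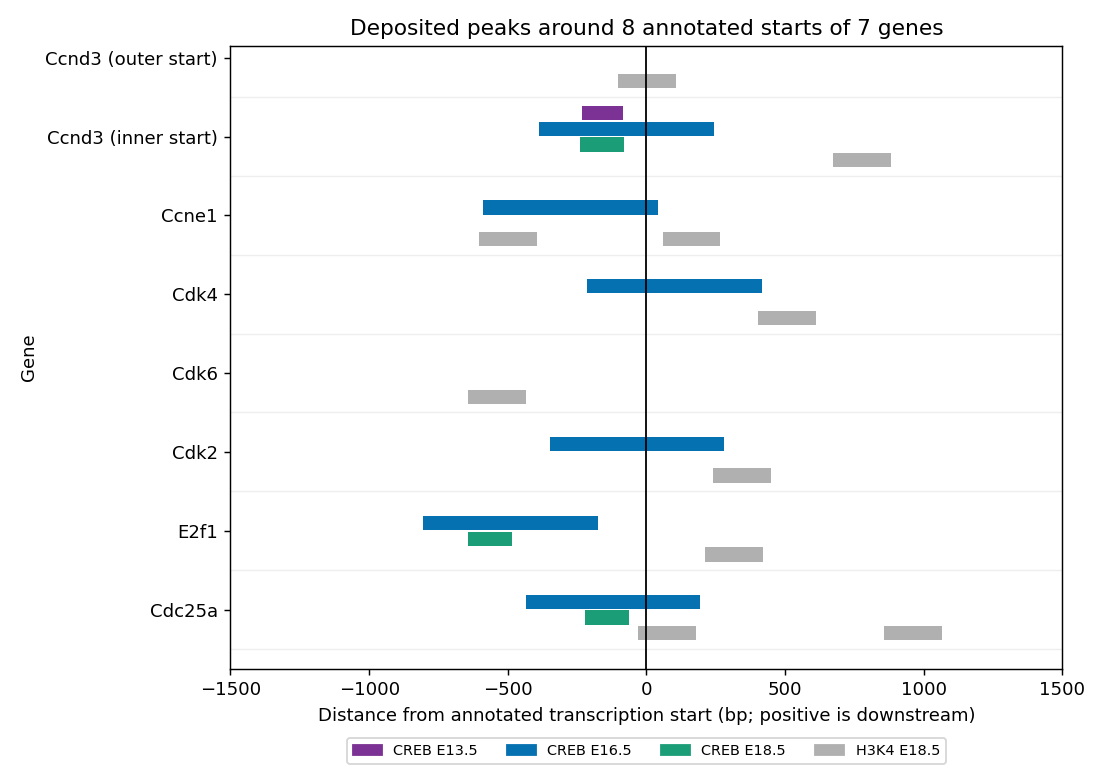
Deposited peaks, drawn to scale as bars, around 8 annotated starts of 7 genes; the horizontal axis is distance from the start in bp, positive downstream, and colours are the 4 peak lists. CREB bars cover or precede the start at Ccnd3 (inner), Ccne1, Cdk4, Cdk2, E2f1 and Cdc25a, with an H3K4 bar further downstream at each. Ccne1 also has an H3K4 bar upstream of the start.

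Merged across stages, the CREB peaks of the 10 genes formed 11 regions. Of these, 2 were seen at every stage (both in Ccnd3), 4 at E16.5 and E18.5 (Ccnd3 beside Taf8, Cdk2 beside Rab5b, E2f1 and Cdc25a), 4 at E16.5 and 1 at E18.5 (Ccnd2). One of the 4 seen at E16.5, beside Tspan31, met an E18.5 peak just outside the window. The other 3, at the starts of Ccne1, Cdk4 and Cdk2, met none. Among all E16.5 CREB peaks 32.9% touched no E18.5 peak, and among those from row 1931 on, where these 3 stood, 58.5% touched none. What the difference between the stages rests on was not tested.

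List position, the only other information a list gives, ran from early for Ccnd3 to late for Cdc25a in the CREB lists of E16.5 and E18.5. In the H3K4 list it did not, with Cdc25a at 6.74% and 8.64% and Ccnd3 between 3.62% and 99.2%. The 2 Ccnd3 sites seen at every stage were in rows 276 and 354 of 2957 at E18.5, 682 and 536 of 3528 at E16.5, and 208 and 542 of 862 at E13.5. At E16.5 the start peaks of Cdk2, E2f1, Ccne1, Cdk4 and Cdc25a were at 54.7%, 71.6%, 74.1%, 81.0% and 98.9% of the list. No source used here says what the order follows. If the later lists are cut to their first 862 peaks, the length of the E13.5 list, Ccnd3 is the 1 gene left at E16.5 (background 5.28%), and Ccnd3 and Cdk2 are left at E18.5 (5.16%). Cdk2 is left there through the peak at the Rab5b start, 1473 bp outside Cdk2, in row 702.

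**Figure D4:**
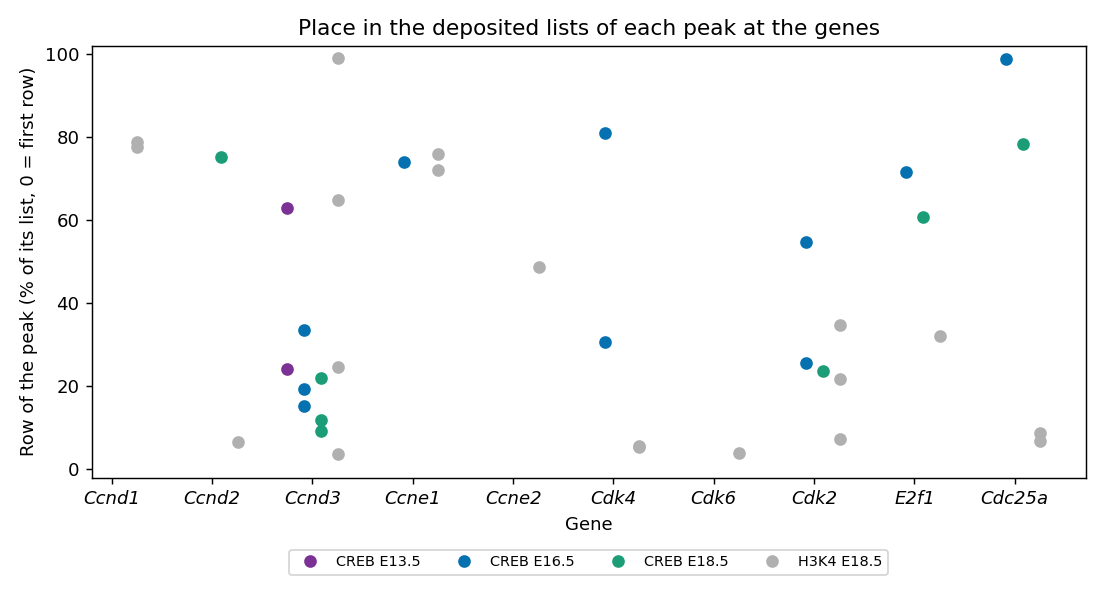
Row of each peak as a percentage of its list (0 is the first row), for the 10 genes; colours are the 4 lists and each dot is a peak. Ccnd3 dots of E16.5 and E18.5 lie at or below 33.5%, whereas the Cdc25a dots of these stages lie at 98.9% and 78.3%.

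At E18.5, the stage with both antibodies, 1 of the 7 CREB peaks touched an H3K4 peak, the one beside Taf8, and 5 of 7 had an H3K4 midpoint within 1000 bp. Of all E18.5 CREB peaks 33.1% touched an H3K4 peak and 88.3% had a midpoint that near. The wider E16.5 peaks touched H3K4 in 7 of 10 cases, near the 66.8% of their whole list, and had a midpoint within 1000 bp in 9 of 10, near its 85.9%. At all 6 own starts with CREB, the inner Ccnd3 start and those of Ccne1, Cdk4, Cdk2, E2f1 and Cdc25a, an H3K4 midpoint lay downstream of the CREB midpoint. These H3K4 midpoints were 778, 163, 505, 346, 317 and 74 bp downstream of the start. Ccne1 also had an H3K4 midpoint 499 bp upstream of the start. It was 225 bp from the CREB midpoint, and the downstream one was 437 bp away. How often H3K4 lies downstream at all starts with CREB was not counted.

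Start windows were given for 7 of the 10 genes, 8 windows in all; Ccnd1, Ccnd2 and Ccne2 have no entry. At E16.5 a CREB peak overlapped the window of 6 genes, 6 of the 8 windows. Of all 32851 windows, which include those of noncoding genes and several for some genes, 9.96% overlapped one. At E18.5 it was 2 genes (Ccnd3 and Cdc25a; 7.82%), and at E13.5 it was 1 (Ccnd3; 2.38%). The start given for E2f1 is 466 bp inside the outer gene end. The E18.5 peak of E2f1, centred 97 bp outside that end, did not reach the E2f1 window. The stretches before the starts of the other genes are shown because they lie in or beside these peaks. They are Cdc25a, chr9:109875357-109875578, plus strand, from the lower edge of the E18.5 peak to the start; Ccne1, chr7:38107491-38107640, minus strand; Cdk4, chr10:127063385-127063534, plus strand; Cdk2, chr10:128705052-128705201, minus strand; and E2f1, chr2:154569527-154569676, minus strand.
Cdc25a: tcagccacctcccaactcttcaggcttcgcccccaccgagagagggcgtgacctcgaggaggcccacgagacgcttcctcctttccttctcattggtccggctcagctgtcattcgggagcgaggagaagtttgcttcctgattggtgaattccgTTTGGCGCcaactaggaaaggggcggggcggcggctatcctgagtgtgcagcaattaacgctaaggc
Ccne1: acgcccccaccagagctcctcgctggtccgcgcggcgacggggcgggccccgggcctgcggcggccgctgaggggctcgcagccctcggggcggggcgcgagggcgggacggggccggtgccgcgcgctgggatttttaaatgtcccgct
Cdk4: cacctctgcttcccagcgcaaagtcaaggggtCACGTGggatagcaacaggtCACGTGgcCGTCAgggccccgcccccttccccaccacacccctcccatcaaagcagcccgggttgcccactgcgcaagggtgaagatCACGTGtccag
Cdk2: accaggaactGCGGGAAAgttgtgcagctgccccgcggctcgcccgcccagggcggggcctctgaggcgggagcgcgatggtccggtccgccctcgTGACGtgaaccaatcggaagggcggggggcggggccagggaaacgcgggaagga
E2f1: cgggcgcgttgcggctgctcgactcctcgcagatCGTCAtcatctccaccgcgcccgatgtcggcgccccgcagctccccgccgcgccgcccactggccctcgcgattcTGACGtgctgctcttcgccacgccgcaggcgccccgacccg

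The full CRE, TGACGTCA, was in none of the 8 windows, and neither was the variant TAACGTCA. They were in 1.79% and 0.244% of all windows. The core TGACG, searched on both strands and contained in both longer strings, was in 6 of 8 windows: both of Ccnd3 and those of Cdk4, Cdk6, Cdk2 and E2f1. It was in 20.8% of all windows, in 31.4% of those with an H3K4 midpoint within 1000 bp of the start, and in 60.8% of those with an E16.5 CREB peak. Of the 6 member windows with an E16.5 CREB peak, 4 held it, which is near that last share. In these 4 (Ccnd3, Cdk4, Cdk2 and E2f1) a core lay inside the E16.5 peak, 28, 90, 54 and 216 bases before the start. The E16.5 peaks covered the whole inner Ccnd3 and Cdk2 windows and most of the Cdk4 window. Strings there would nearly all lie inside the peak, so this does not tie the core to binding. The E2f1 window lies inside the gene body, with its start 466 bp from the outer gene end. The E2f1 cores are therefore gene-body sequence and do not lie before that end. Whether they lie in coding sequence was not examined. The sequence at the outer end, where the E2f1 CREB midpoints lay, was not searched.

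In the 8 windows of 7 genes, G and C made up 77.3% of the E2f1 window, 76.0% of the Ccne1 window and between 56.7% and 67.0% of the others, beside a median of 52.7% over all windows and 62.0% over those near H3K4. The Cdc25a window and the outer Ccnd3 window, with 59.3%, were below the latter. E2F-type sites were searched as exact strings, and other forms of the site were not searched. Each string was rare over all windows. Among windows with an H3K4 midpoint within 1000 bp of the start, TTTCCCGC, TTTGGCGC and TTTCGCGC were in 2.07%, 0.981% and 0.659%. TTTCCCGC was found at Cdk2 on the opposite strand, 140 bases before the start (1.07% of all windows), TTTGGCGC at Cdc25a, 67 bases before it (0.514%), and TTTCGCGC in no member window (0.323%). Both sites lay inside the E16.5 peak, which covered the whole start window at both genes. Any string in these windows would do so. A string match is a description of the sequence and does not show a bound site.

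The other genes of the G1/S pathway were taken as a list of 30. In order of stage, 1, 10 and 8 of them had a CREB peak (3.33%, 33.3% and 26.7%, where all protein-coding genes gave 4.82%, 18.3% and 15.6%). H3K4 was at 29, all but Myc, where all genes gave 63.1%. The groups by role are small, and their counts are read against these shares. Fbxw7, which encodes the ubiquitin ligase subunit that recognises cyclin E, had CREB at every stage, at chr3:84814399-84814558 at E18.5. Its midpoint was 512 bp outside the gene and 45 bp upstream of the start of the noncoding gene Gm35486.

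Of the 7 CDK inhibitor genes, 3 had CREB at E16.5. At E18.5 it was 1 of 7, near the 15.6% of all genes. Cdkn2d, which encodes an inhibitor of CDK4 and CDK6, had peaks centred 187 and 135 bp upstream of its start at these stages, and a further E18.5 peak 94 bp upstream of the start of its neighbour Kri1. Cdkn2b, of the same inhibitor family, had a peak centred 22 bp upstream of its start at E16.5, and Cdkn1a, which encodes p21, had one 1710 bp downstream of a start at E16.5. Cdkn1b, Cdkn1c, Cdkn2a and Cdkn2c had none. The pocket protein gene Rb1 had a peak at E16.5 inside its body, 31 bp from the start of Lpar6, a gene that lies within it, and Rbl1 and Rbl2 had none.

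Of the 9 other E2F and DP genes, E2f3 and Tfdp2 had CREB, both at E16.5 and E18.5. The E2f3 peaks were centred 492 and 193 bp upstream of its start, and the Tfdp2 peaks 25 bp outside and 7 bp inside its gene end. E2f2, E2f4, E2f5, E2f6, E2f7, E2f8 and Tfdp1 had none. In the CDK-activating kinase, Ccnh had peaks at E16.5 and E18.5 and Mnat1 1 at E18.5, 14662 bp inside the gene, while Cdk7 had none. Cdc25c and Cks1b, a cofactor of CDKs, had peaks at both later stages, the latter nearest to the start of its neighbour Shc1.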

How the data were processed

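CUT&RUN of 4 libraries, 3 with a CREB antibody and 1 with an H3K4 antibody, was analysed from the peak lists the authors deposited. The fifth library of the series, IgG, was not analysed here; its labels disagree on its stage. Each deposited file holds 3 columns, chromosome, start and end, with no score or count. The tools and build listed are mm10, Bowtie2 2.5.2, MACS2 and Trim Galore 0.6.10, per the submitters' processing notes. Of the peak calling, the settings and any control used are not given.

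A peak was assigned to a gene when it overlapped the body or 3000 bp outside it by at least 1 bp. Positions are 1-based, and distances run from peak midpoints. Gene ends and start windows came from RefSeq tables (GRCm38.p6). The start windows do not cover every gene, and none was given on chr18, so shares of windows cover the listed starts only. The background is the share of 21887 protein-coding genes under the same rule. The overlap code was tested on simulated peaks and found 200 of 200 planted genes for each list. Alternatives were other windows, midpoints, a common width of 150 bp and the first 862 peaks; the common width at start windows was added after seeing the data. Members and lists were chosen with earlier results of these data known. All 10 genes are named, with the other G1/S genes by role. Python 3.11.15, numpy 2.4.6, pandas 2.3.3 and matplotlib 3.10.9 were used.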

Additional observations from a re-analysis of the deposited data

How the results depend on the processing

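Across 9 counts and 29 alternative settings, 22 values stayed within 1.5 times the reported count and 7 did not. Within 1000 bp of a gene end, 0 genes had CREB at E13.5 and 2 at E18.5, and 6 had H3K4. In the gene body alone 1 gene had CREB at E18.5, since the peaks of the other 4 lie outside the gene. With the first 862 peaks, 1 gene was left at E16.5 and 2 at E18.5. H3K4 touched an E18.5 CREB peak at 1 gene, and H3K4 midpoints lay within 1000 bp at 4. With every peak 150 bp wide, the members by stage and the 6 regions shared by E16.5 and E18.5 kept their counts, and 5 in place of 6 genes had CREB in a start window at E16.5, without E2f1. Depth is unknown, and each group is 1 library.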

Other observations

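The narrow peaks at the inner Ccnd3 start and at Cdc25a hold CCAAT and no TGACG; this string and CACGTG were searched after the sequences had been seen. The E13.5 and E18.5 peaks at the inner Ccnd3 start include CCAAT 108 bases before the start. The E18.5 peak at Cdc25a includes it on the opposite strand, 131 and 81 bases before the start. The other Ccnd3 peaks, 6 kb inside the gene and beside Taf8, were not searched. Of 1219 E18.5 CREB peaks that lie whole inside a start window, 47.3% held TGACG and 50.9% CCAAT. Among the 642 without TGACG, 51.6% held CCAAT, so these peaks resemble many others of the list. At E13.5 the shares were 62.2% and 51.4% of 360 peaks. CCAAT is the string bound by the factor NF-Y, and it was in 37.4% of all start windows.

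The E16.5 CREB peak at the Cdk4 start covered most of the start window. The window held CACGTG 4 times, 172, 118, 98 and 11 bases before the start, all inside that peak. This string is the E-box bound by MYC and related factors. At least 3 copies were found in 29 of 32851 windows (0.0883%), and 1 or more in 7.15%. Cdk6 held 1 copy, 220 bases before its start. Myc itself had neither a CREB nor an H3K4 peak in the gene or 3000 bp outside it, and sites further away were not examined.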
